A study of Mus musculus with 2 samples.

Results

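The genes described here are 50 interferon regulatory factors (IRFs), nucleic acid sensors and interferon-stimulated genes, taken by name from a table of 27179 genes. Gene symbols were matched to the Entrez Gene numbers of the table, and all 50 were found, 48 by their RefSeq symbol and 2 by an older name. The RNA came from ALL65, a leukaemia of immature T cells (T-ALL, T cell acute lymphoblastic leukaemia) that arose in a mouse. It carries Vav-tTA, a tetracycline transactivator driven by the Vav promoter of blood cells, and TRE-GFP-shIkaros, in which a tetracycline response element drives a hairpin RNA against Ikaros together with green fluorescent protein. Doxycycline (Dox) switches the hairpin off, so that Ikaros, a lymphoid zinc finger transcription factor encoded by Ikzf1, is made again from the cells' own gene. The Dox group was the GFPmid T-ALL cells of leukaemic mice given Dox for 3 days, and the untreated group was the GFPhigh T-ALL cells of mice without Dox. Both groups came from sorted spleen cells of recipient mice with leukaemia, both carry the hairpin transgene, and the sort gate differs between them along with Dox. The comparison addresses how transcripts of established leukaemia cells differ after Ikaros is restored, in 1 primary leukaemia.

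Interferons are secreted proteins that warn cells of infection. Type I interferons are made after sensors of foreign RNA or DNA, acting through adaptors such as MAVS and STING, activate IRF3 and IRF7. Bound to their receptor, they act through the kinases JAK1 and TYK2 on the complex ISGF3, of which STAT2 and IRF9 are subunits. ISGF3 binds the interferon-stimulated response element and turns on antiviral genes, among them many of the sensors and IRF genes themselves, and T lineage cells transcribe part of this set without infection.

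Each group had 1 library. No test was therefore run and no p-value could be had, since the spread between mice is unknown. The Dox library held 14457475 counts and the untreated library 7477988. Levels are CPM (counts per 1000000 of the TMM-scaled library size), and ratios are log2 ratios of Dox over untreated with a prior count of 2. Bounds beside a ratio are exact 95% counting intervals (Clopper-Pearson), which cover counting error only. Ikzf1, the targeted gene, stood at 1455 CPM in the Dox library and 262 CPM in the untreated library, in the direction that the labels give. Its log2 ratio was 2.47 (2.41 to 2.54).

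As a group, the members leaned to higher levels with Dox, with exceptions in several families. They were chosen with earlier results of these data known, so the counts below describe them and do not test for an excess. A minimum of 5 CPM in whichever library was higher left 41 of the 50 to compare, and 3 of these (Ifit1, Mx2 and Oasl2) passed the minimum in the higher library alone. At least 1.5-fold higher with Dox were 16 members, where 6.28% of all 10113 genes past that minimum met the same rule. At least 1.5-fold lower were 6 members, where 6.18% of all genes were. At least 2-fold higher were 8 members (2.21% of all genes) and at least 2-fold lower 0 members (2.24% of all genes). The 41 had a median log2 ratio of 0.45, beside 0.01 over all 10113 genes, and the median over all 50 members with no minimum was 0.50. Ratios of the 41 ran between -0.88 for Irf4 and 2.05 for Epsti1. The counting interval lay wholly above 0 for 28 of the 41 (26.9% of all genes), wholly below 0 for 7 (23.8% of all genes), and held 0 for 6. Together the members took 0.247% of the Dox counts and 0.186% of the untreated counts.

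The promoters of 5 members are shown because they hold, or lack, the core of the interferon-stimulated response element while their transcripts differed in opposite directions. Each line gives the 250 bases before the RefSeq transcription start on GRCm38.p6, read 5′ to 3′ on the gene's strand, and capitals mark each match to that core (the letters GAAA, any 2 bases, and GAAA) on either strand, overlapping matches being merged. The stretches lie at chr4:156200819-156201068, minus strand for Isg15, chr19:34640639-34640888, plus strand for Ifit1, chr5:120777660-120777909, minus strand for Oas3, chr8:71537473-71537722, minus strand for Bst2 and chr14:77903989-77904238, plus strand for Epsti1.
Isg15: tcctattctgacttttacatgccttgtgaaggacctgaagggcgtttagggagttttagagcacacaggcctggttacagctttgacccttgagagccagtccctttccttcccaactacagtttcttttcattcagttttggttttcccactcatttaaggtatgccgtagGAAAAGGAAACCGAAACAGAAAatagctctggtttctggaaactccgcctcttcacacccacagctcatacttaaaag
Ifit1: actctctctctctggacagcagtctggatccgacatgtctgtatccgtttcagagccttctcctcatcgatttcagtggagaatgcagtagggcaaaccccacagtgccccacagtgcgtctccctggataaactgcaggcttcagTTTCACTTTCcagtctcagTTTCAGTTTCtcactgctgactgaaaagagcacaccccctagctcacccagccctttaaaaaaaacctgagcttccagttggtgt
Oas3: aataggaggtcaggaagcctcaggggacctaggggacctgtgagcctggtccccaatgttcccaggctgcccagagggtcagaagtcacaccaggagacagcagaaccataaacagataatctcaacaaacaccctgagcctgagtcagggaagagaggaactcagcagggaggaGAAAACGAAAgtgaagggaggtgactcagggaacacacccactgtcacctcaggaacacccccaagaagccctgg
Bst2: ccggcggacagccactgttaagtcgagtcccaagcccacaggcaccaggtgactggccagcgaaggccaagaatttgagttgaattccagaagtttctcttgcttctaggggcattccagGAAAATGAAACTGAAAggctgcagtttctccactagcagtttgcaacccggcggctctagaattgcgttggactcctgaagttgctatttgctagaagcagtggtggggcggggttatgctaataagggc
Epsti1: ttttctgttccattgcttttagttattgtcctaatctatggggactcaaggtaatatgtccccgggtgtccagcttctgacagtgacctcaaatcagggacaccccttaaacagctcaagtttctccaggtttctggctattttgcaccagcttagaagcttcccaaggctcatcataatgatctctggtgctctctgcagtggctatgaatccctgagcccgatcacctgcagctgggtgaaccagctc

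Isg15 held 3 overlapping matches between positions -78 and -57 from the start, and Bst2 held 2 between -130 and -115. Ifit1 had its 2 matches on the opposite strand, between -104 and -95 and between -85 and -76, and Oas3 had 1 between -75 and -66. No match was found in the Epsti1 stretch, which says only that these letters are not in this window. Isg15, Ifit1 and Oas3 stood at least 1.5-fold higher with Dox and Bst2 at least 1.5-fold lower. That the core is shown on both sides follows from how these promoters were chosen.

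The RefSeq table held a window of 250 bases before to 50 after the start for 38 of the 50 members. In these windows the response element core was found for 14 of 38 members (36.8%), beside 1079 of 27025 genes (3.99%) in the whole table. Of the 10 members at least 1.5-fold higher that had a window, 4 held it, as did 3 of the 5 at least 1.5-fold lower and 3 of the 15 within 1.5-fold. The gamma-activated site, bound by STAT dimers and searched as TTCNNNGAA, was found for 11 of 38 members (28.9%) and 9.55% of all genes. By direction these were 2 of the 10 higher members, 2 of the 5 lower and 6 of the 15 within 1.5-fold. TGGGAA, the core of the Ikaros recognition sequence, was found on either strand for 16 of 38 members (42.1%) and 28.3% of all genes. It was present in 6 of the 10 members at least 1.5-fold higher, 1 of the 5 at least 1.5-fold lower and 6 of the 15 within 1.5-fold. The other 8 members with a window were under 5 CPM. Of these, 4 held the response element core, 1 the gamma-activated site and 3 TGGGAA. A link between any motif and direction was not tested. The only overlap between matches of different motifs in members that are shown here was in Bst2, where a TTCNNNGAA match from -136 to -128 runs into the first response element core. A match is a description of letters and not of binding.

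Among the interferon regulatory factors, Irf7 and Irf9 stood higher with Dox and Irf4 lower. Irf7 (Entrez Gene 54123, chromosome 7 from 141263183 to 141266499 in GRCm38), the factor that amplifies type I interferon production, had 584 counts in the Dox library and 118 in the untreated library, or 41.1 and 15.5 CPM. Its log2 ratio of 1.39 (1.12 to 1.70) was the largest of the family. Irf9 (Entrez Gene 16391), the DNA-binding subunit of ISGF3, stood at 104 CPM in the Dox library and 53.7 CPM in the untreated library, with a ratio of 0.95 (0.79 to 1.11).

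Irf4 (Entrez Gene 16364, chromosome 13), a factor induced by T cell receptor signals and needed for effector differentiation, went the other way. It stood at 31.2 CPM in the Dox library and 57.8 CPM in the untreated library, and its ratio of -0.88 (-1.08 to -0.69) was the lowest of the 41 members past the minimum. Irf1, an activator induced by interferon gamma, had 141 CPM with Dox and 95.5 CPM without, a ratio of 0.56 (0.43 to 0.68) that was under 1.5-fold. Irf2, which competes with Irf1 for the same DNA sites, had a ratio of 0.45 (0.27 to 0.63). Irf3, which is present before infection and is switched on by phosphorylation, had near-equal levels of 80.3 CPM in the Dox library and 76.8 CPM in the untreated library, a ratio of 0.06 (-0.08 to 0.21). Irf8, best known from myeloid and dendritic cells, stood at 14.9 and 11.7 CPM in Dox and untreated cells, and its interval of -0.02 to 0.72 held 0. Irf5, a factor of myeloid and B cells, had 3 counts in each library.

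Stat2, which joins Irf9 in ISGF3, differed less than Irf9. It had 53.6 CPM with Dox and 41.7 CPM without, a ratio of 0.36 (0.17 to 0.56) whose interval did not overlap with that of Irf9.

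The sensors of nucleic acids split by gene. Ddx58 (Entrez Gene 230073, chromosome 4 from 40203777 to 40239825), which encodes the RNA sensor RIG-I, had 1151 counts in the Dox library and 234 in the untreated library, or 80.9 and 30.8 CPM. Its ratio was 1.39 (1.19 to 1.60), a 2.62-fold higher level with Dox. Ifih1 (Entrez Gene 71586, chromosome 2 from 62595618 to 62646255), which encodes MDA5, the related sensor of long double-stranded RNA, had 102 counts with Dox and 88 without, or 7.17 and 11.6 CPM. Its ratio was -0.68 (-1.12 to -0.26), so that these related sensors lay on opposite sides, with intervals that did not overlap. Dhx58, which encodes LGP2, a regulator of both sensors, stood at 19.7 CPM in Dox cells and 11.8 CPM in untreated cells, a ratio of 0.72 (0.38 to 1.09).

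Zbp1 (Entrez Gene 58203, chromosome 2), a sensor of left-handed nucleic acids that can trigger necroptosis, was also past 2-fold. It had 52.8 CPM in the Dox library and 20.5 CPM in the untreated library, with a ratio of 1.36 (1.11 to 1.62). The adaptors and the DNA-sensing arm differed less. Mavs, the mitochondrial adaptor of RIG-I and MDA5, had 29.6 CPM with Dox and 35.4 CPM without, a ratio of -0.26 (-0.48 to -0.03). Mb21d1, which encodes the DNA sensor cGAS, had a ratio of 0.30 (-0.02 to 0.63), and Tmem173, which encodes its effector STING, one of 0.38 (0.19 to 0.58). All 3 lay within 1.5-fold.

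The 4 members of the ISG15 system, in which a ubiquitin-like protein is attached to other proteins, all had ratios above 0. So did 51.8% of all 10113 genes past the minimum of 5 CPM. Of genes of this system that are not members, Uba7 had a ratio of 0.18 (-0.03 to 0.39). Ube2l6 went the other way, with 4 counts with Dox and 9 without, under the minimum of 5 CPM. Isg15 (Entrez Gene 100038882, chromosome 4), the modifier itself, had 20.6 CPM in the Dox library and 10.9 CPM in the untreated library, a ratio of 0.90 (0.56 to 1.29). Usp18, the protease that removes it and also damps receptor signalling, stood at 56.2 CPM with Dox and 37.5 CPM without, a ratio of 0.58 (0.39 to 0.79), just under the 1.5-fold line. Herc6, the mouse ligase for Isg15, had 58.3 CPM in Dox cells and 53.4 CPM in untreated cells, with an interval of -0.05 to 0.30 that held 0. Trim25, a ubiquitin ligase that activates RIG-I, was the most abundant member by CPM in both libraries, at 291 CPM with Dox and 232 CPM without, and had a ratio of 0.33 (0.25 to 0.41).

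The ADP-ribosylation genes lie close together on chromosome 16. Parp9, which works as a partner of Dtx3l, had 100.2 CPM in the Dox library and 64.3 CPM in the untreated library, a ratio of 0.64 (0.49 to 0.79). Dtx3l, a ubiquitin ligase, had 167 CPM with Dox and 149 CPM without, a ratio of 0.16 (0.06 to 0.26). Their exons share 367 bases on opposite strands, and no strand setting is stated, so reads in that stretch cannot be assigned to either. Parp14, an ADP-ribosyltransferase of the same locus, had a ratio of 0.41 (0.28 to 0.54).

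Enzymes that bind double-stranded RNA were the role group with the most members at least 1.5-fold lower. These were 3 of the 6 past the minimum of 5 CPM (6.18% of all genes), and Oasl2 among them passed it in the untreated library alone. Eif2ak2 (Entrez Gene 19106, chromosome 17), which encodes the kinase PKR that halts translation, had 37.1 CPM in the Dox library and 61.8 CPM in the untreated library. Its ratio was -0.73 (-0.92 to -0.55). Adar edits adenosine to inosine and keeps the cells' own RNA from being sensed. It stood at 201 CPM with Dox and 136 CPM without, a ratio of 0.56 (0.46 to 0.67) just under 1.5-fold. Of the 50-base words of Adar, 14.4% are also found in transcripts of Chrnb2, which had 96 counts with Dox and 34 without. PKR and the editing enzyme thus lay on opposite sides of 0, with intervals apart.

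The oligoadenylate synthetases make the messenger that activates RNase L, and their genes on chromosome 5 did not share a direction. Oas3 (chromosome 5 from 120753098 to 120777684) had 540 counts in the Dox library and 163 in the untreated library, or 38.0 and 21.4 CPM, a ratio of 0.82 (0.57 to 1.09). Its neighbour Oas2 (chromosome 5 from 120730333 to 120749886) had 137 counts with Dox and 132 without, or 9.63 and 17.4 CPM, a ratio of -0.84 (-1.21 to -0.50). Neighbouring genes of 1 family therefore stood on opposite sides. Oas1a, further along the locus, had a ratio of -0.34 (-0.69 to 0.01). Of its 50-base words, 57.6% are also found in transcripts of other genes, mostly Oas1g, so its count is uncertain. Oasl2, a relative with ubiquitin-like domains, had 53 counts in Dox cells and 45 in untreated cells and a ratio of -0.64 (-1.27 to -0.06), and Oasl1 had 14 counts and 1 count.

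Some antiviral effectors, namely the IFITM and Mx families, Rsad2 and Ifi44, were low in both libraries, unlike others such as Oas3. Ifitm1, Ifitm2 and Ifitm3, membrane proteins that block viral entry, had 0, 2 and 2 counts in the Dox library and 0, 7 and 2 in the untreated library. A count of 0 allows up to 0.211 CPM in the Dox library and 0.395 CPM in the untreated library. Mx1, a GTPase that blocks influenza, had 14 counts with Dox and 3 without, Rsad2, which encodes viperin, had 54 and 14, and Ifi44, an interferon-induced gene, had 2 and 0. Mx2 reached 6.05 CPM in the Dox library and 3.82 CPM in the untreated library, with a ratio of 0.64 (0.04 to 1.32).

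The IFIT genes, whose proteins bind viral RNA ends, lie together on chromosome 19 and differed among themselves. Ifit1 had 120 counts in the Dox library and 26 in the untreated library, or 8.44 and 3.42 CPM, a ratio of 1.26 (0.68 to 1.97). Ifit2, the most abundant of them, had near-equal levels of 53.3 CPM in Dox cells and 49.5 CPM in untreated cells, a ratio of 0.11 (-0.07 to 0.29). Ifit3 had 27 counts with Dox and 2 without, and 51.2% of its 50-base words also occur in transcripts of other genes, mostly Ifit3b.

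The remaining effectors held the largest ratios among the 41 members past the minimum. Epsti1 (Entrez Gene 108670, chromosome 14), an interferon-responsive gene first described from epithelial and stromal cell contact, had 861 counts in the Dox library and 110 in the untreated library, or 60.5 and 14.5 CPM. It was 4.14-fold higher with Dox, at a ratio of 2.05 (1.78 to 2.36), and stood at place 26 among the 10113 genes ordered by ratio. Ifi27l2a (Entrez Gene 76933, chromosome 12), a small protein induced by type I interferon, had 388 counts with Dox and 51 without, or 27.3 and 6.71 CPM, and stood at place 32.

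Its relative Ifi27, a mitochondrial and nuclear membrane protein, was higher as well, at 125 CPM in the Dox library and 54.2 CPM in the untreated library, a ratio of 1.21 (1.05 to 1.37). In the RefSeq table Ifi27l2a runs from 103433873 to 103443680 on chromosome 12 and Ifi27 from 103434189 to 103440245, so that their spans overlap. No exon overlap between them was found in GENCODE M21, and 0 of the 1651 50-base words of Ifi27 and 2 of the 414 of Ifi27l2a also occur in transcripts of other genes. Samd9l (chromosome 6), an inhibitor of translation and growth, had 97.9 CPM with Dox and 40.7 CPM without, a ratio of 1.26 (1.09 to 1.45). Isg20, an exonuclease, had 10.1 CPM in Dox cells and 5.13 CPM in untreated cells, a ratio of 0.95 (0.45 to 1.52).

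Bst2 (Entrez Gene 69550, chromosome 8), which encodes tetherin, the protein that holds budding virus at the cell surface, was the exception among them. It had 351 counts in the Dox library and 343 in the untreated library, or 24.7 and 45.1 CPM, a ratio of -0.87 (-1.09 to -0.65). Nearly equal counts thus stand for a 1.82-fold lower level, because the Dox library was the deeper. The other effectors with at least 5 CPM had ratios above 0 (51.8% of all 10113 genes). Those not yet given were Ifi35 at 0.62 (0.35 to 0.90), Rtp4 at 0.58 (0.38 to 0.79), Xaf1 at 0.40 (0.09 to 0.74) and Lgals3bp at 0.18 (0.03 to 0.33). Of these, Ifi35 alone reached 1.5-fold.

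**Figure D1:**
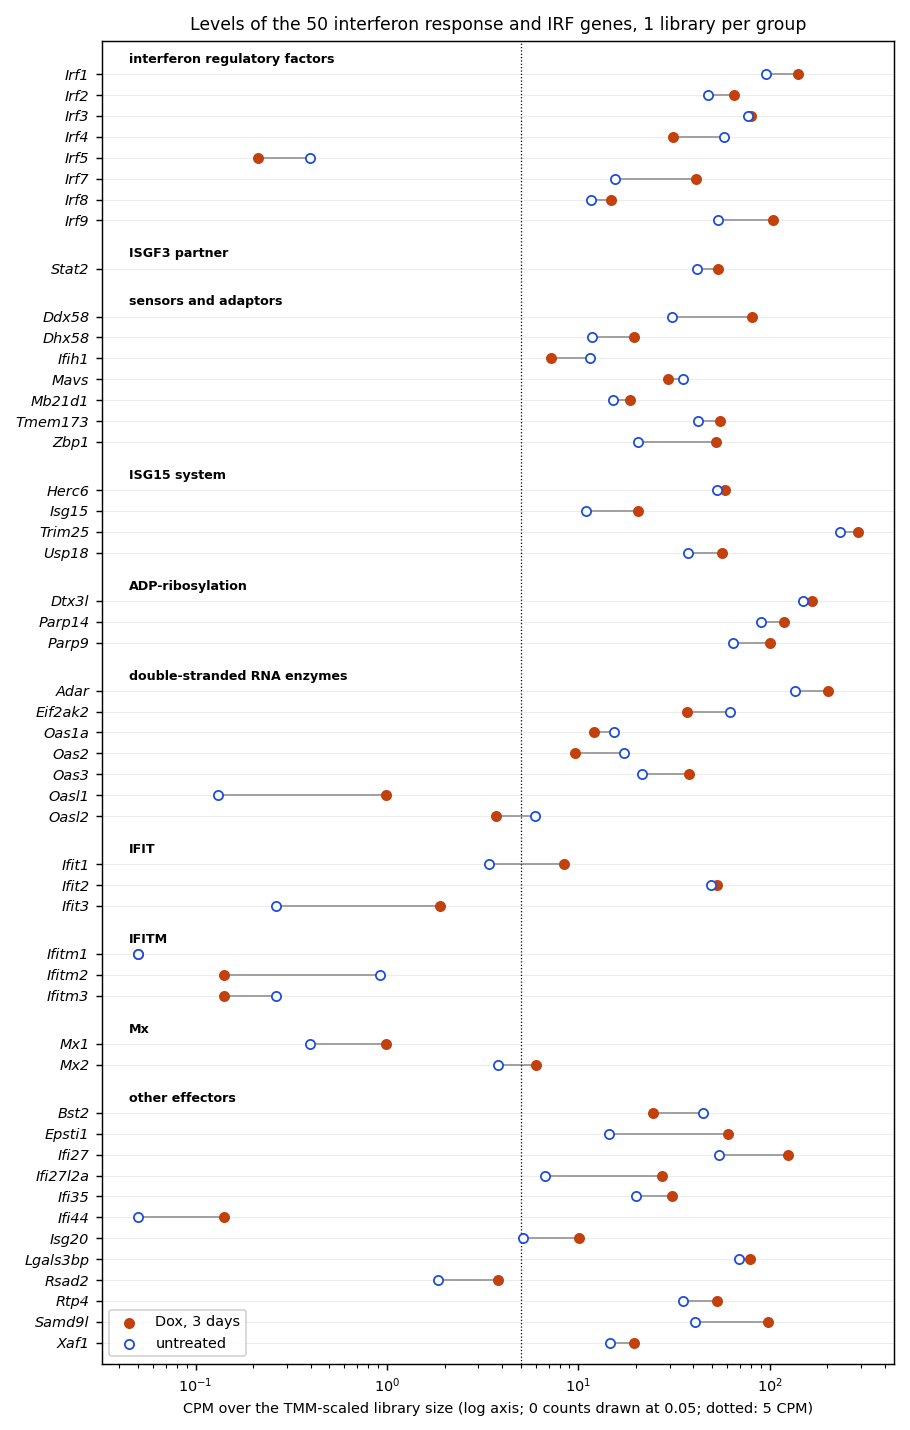
Level of each of the 50 members in the Dox library (filled) and the untreated library (open), in CPM on a log axis, by role; counts of 0 are drawn at 0.05, and for Ifitm1 both circles coincide there. Filled circles lie to the right for most members. They lie to the left for Irf4, Ifih1, Oas2, Oasl2, Eif2ak2 and Bst2, which are at least 1.5-fold lower, for Mavs and Oas1a, and for Irf5, Ifitm2 and Ifitm3, which are under the minimum of 5 CPM.

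**Figure D2:**
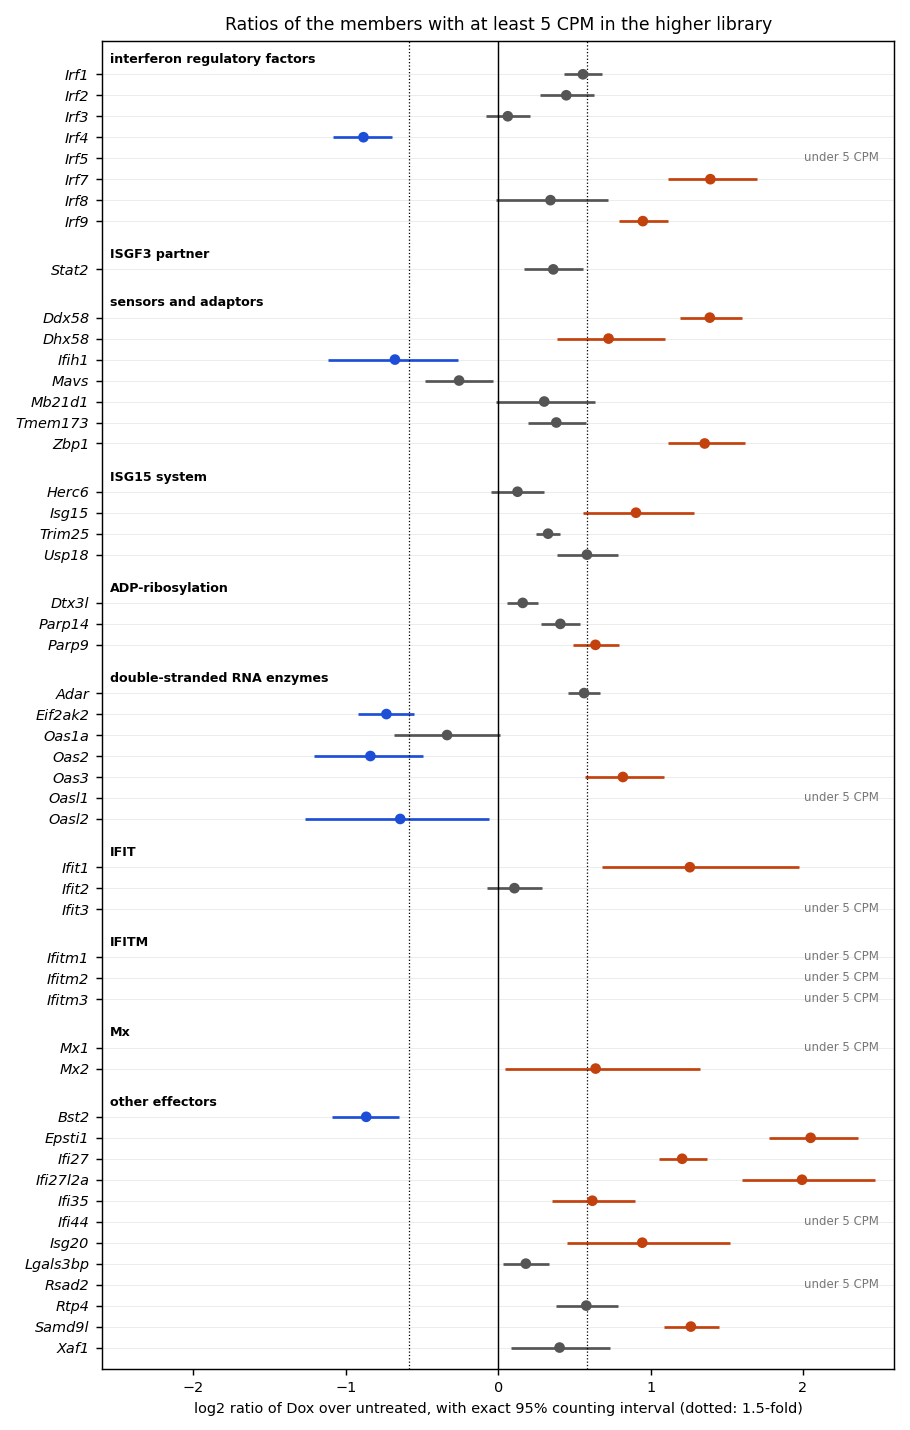
Log2 ratio of Dox over untreated with its exact 95% counting interval for the 41 members past the minimum of 5 CPM, by role, and dotted lines at 1.5-fold. Red marks the 16 members at least 1.5-fold higher, blue the 6 at least 1.5-fold lower and grey the 19 between.

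Among members at least 1.5-fold higher, the whole counting interval lay past 1.5-fold for 9 (3.18% of all genes): Irf7, Irf9, Ddx58, Zbp1, Ifit1, Ifi27l2a, Ifi27, Samd9l and Epsti1. On the lower side this held for 2 (2.89% of all genes), Irf4 and Bst2. The remaining members past 1.5-fold had intervals that reach to smaller ratios.

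**Figure D3:**
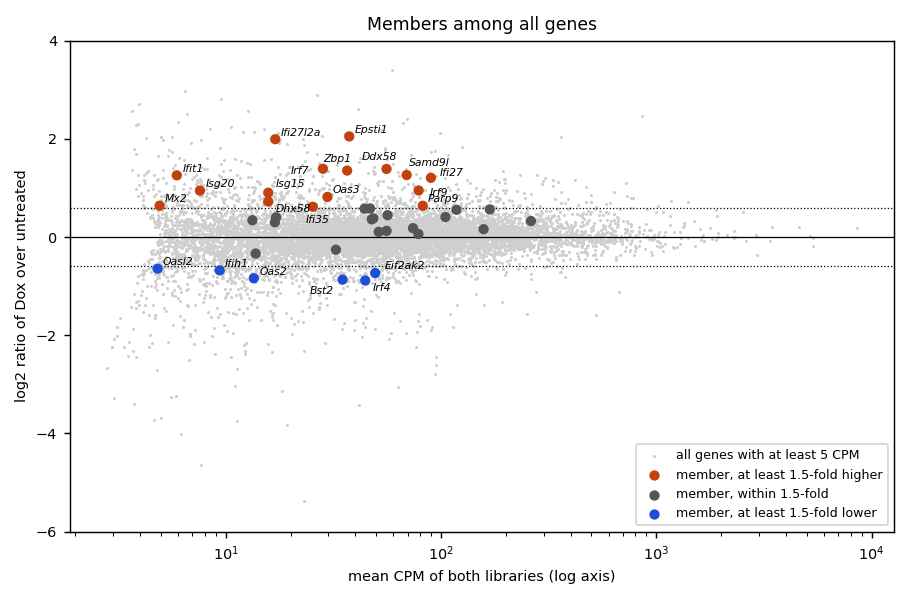
Log2 ratio of Dox over untreated against mean CPM of both libraries (log axis) for all 10113 genes past the minimum of 5 CPM (light grey) and the 41 members among them (coloured by the 1.5-fold rule). The members at least 2-fold higher reach 2.05, and no member passes 2-fold on the lower side.

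Set on a scale per gene length, so that genes can be compared with each other, the order of the members differed between the libraries. In CPM per kilobase of the authors' gene length, Ifi27 was the highest member with Dox, at 119, followed by Ifi27l2a at 58.9 and Trim25 at 52.4. In the untreated library Bst2 was the highest at 58.7 CPM per kilobase, followed by Ifi27 at 51.5 and Trim25 at 41.7. Bst2 stood at 32.1 CPM per kilobase with Dox.

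No transcript of an interferon was counted. All 21 listed genes for interferon alpha, beta, gamma, epsilon, kappa, zeta and lambda had 0 counts in both libraries, each of which allows up to 0.211 CPM with Dox and 0.395 CPM without. The receptors and kinases downstream were present. Of 10 genes for interferon receptor chains, JAKs and STATs, 9 had at least 5 CPM. With Dox 4 of them stood 1.5-fold or more above the untreated level (6.28% of all genes) and 0 as far below it (6.18% of all genes). The median ratio was 0.54. Jak2, the kinase of the interferon gamma receptor, had 196 CPM in the Dox library and 108 CPM in the untreated library, a ratio of 0.86 (0.75 to 0.98). Jak1, which serves both receptor types, stood at 717 CPM with Dox and 451 CPM without, a ratio of 0.67 (0.61 to 0.72). Ifnar1, a chain of the type I receptor, had a ratio of 0.63 (0.51 to 0.75), and Il10rb, shared with the lambda receptor, one of 0.76 (0.40 to 1.16).

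Genes that act upstream of IRFs, such as the kinases that phosphorylate IRF3, mostly stood within 1.5-fold where they could be compared. Of 18 listed, 13 had at least 5 CPM. The Toll-like receptors of the list did not. Tlr3 had 1 count with Dox and 0 without, Tlr7 9 and 4, Tlr9 3 and 0, and Tlr4 0 in both libraries. By the 1.5-fold rule 3 of the 13 were higher (6.28% of all genes) and 0 lower (6.18% of all genes), and their median ratio was 0.05. The highest were Ikbke, an IRF3 kinase, at 138 CPM in the Dox library and 80.3 CPM in the untreated library with a ratio of 0.78 (0.65 to 0.91), Irak4 at 0.72 (0.35 to 1.12) and Nlrc5, the activator of class I genes, at 0.65 (0.46 to 0.86). Traf3, an adaptor upstream of IRFs, had a ratio of 0.33 (0.22 to 0.44). Negative regulators had 15 of 17 genes with at least 5 CPM. By the same rule, with the same shares over all genes, 2 were higher and 0 lower, and the median ratio was 0.16. The higher genes were Rnf125, a ligase that marks RIG-I for degradation, at 0.95 (0.69 to 1.24) and Nlrc3, an inhibitor of STING signalling, at 0.73 (0.48 to 0.99). Trex1, a DNA exonuclease, stood at -0.56 (-0.96 to -0.18) and Socs3, an inhibitor of cytokine receptors, at -0.54 (-0.85 to -0.25).

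**Figure D4:**
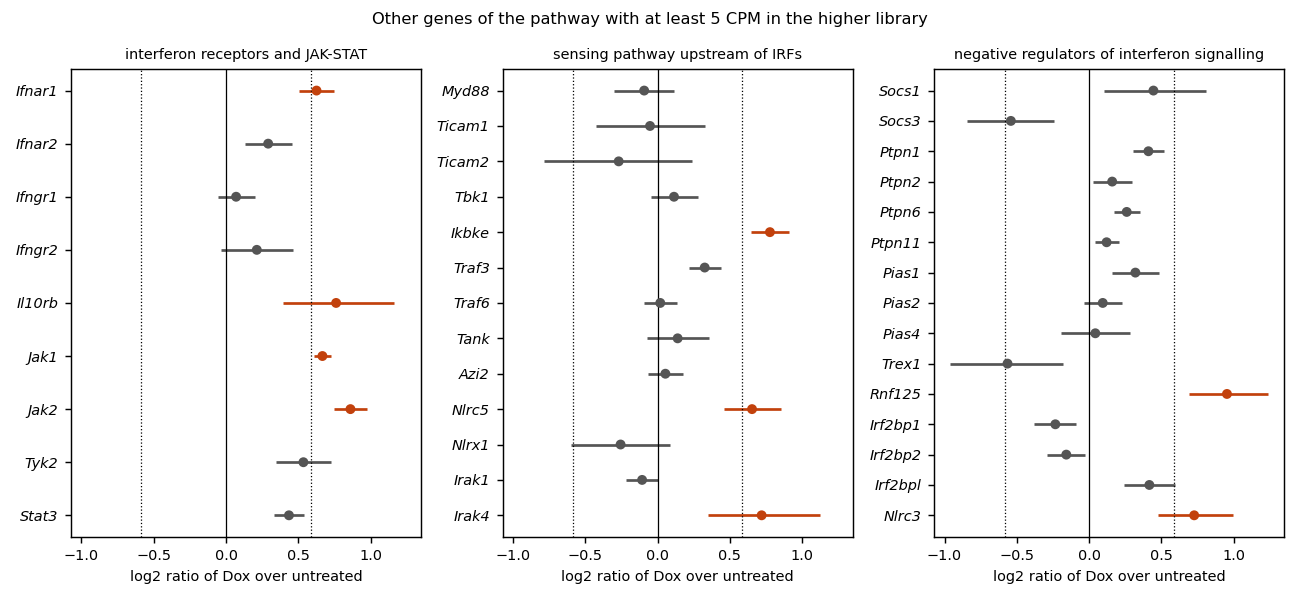
Log2 ratio of Dox over untreated with exact 95% counting intervals for non-member genes of the pathway past the minimum of 5 CPM, in 3 lists, and dotted lines at 1.5-fold. The receptor and JAK-STAT genes all have ratios above 0 (51.8% of all 10113 genes past the minimum), while the other lists hold ratios on both sides.

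A broader list held 86 other interferon-stimulated genes. Of the 66 that had at least 5 CPM, 15 were higher with Dox by the 1.5-fold rule (6.28% of all genes) and 6 lower (6.18% of all genes), a lower count near the share over all genes, and the median ratio was 0.29. The farthest from 0 were Iigp1, an immunity-related GTPase, with 57 counts in the Dox library and 157 in the untreated library and a ratio of -2.31 (-2.83 to -1.92), and Ifi204, of the HIN-200 cluster, at -1.95 (-2.14 to -1.77). On the other side were Phf11b at 1.92 (1.33 to 2.72) and Tent5a at 1.66 (0.99 to 2.57), which had 106 counts with Dox and 17 without. Iigp1, Phf11b and Tent5a were among 5 genes of this list that passed the minimum of 5 CPM in the higher library alone.

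T lineage markers other than Ptcra were present in both libraries. Ptcra had 0 counts with Dox and 3 without. Of the 15 listed, 14 had at least 5 CPM. By the 1.5-fold rule 5 of these were higher with Dox (6.28% of all genes) and 2 lower (6.18% of all genes). The farthest from 0 were Notch1 at -1.60 (-1.66 to -1.54) and Rag1 at -1.54 (-1.72 to -1.37), followed by Cd8b1 at 1.27 (1.18 to 1.36) and Cd4 at 0.83 (0.67 to 0.99). Plasmacytoid dendritic cells are potent interferon producers that also carry Bst2 and Irf8. Of their 13 markers, 8 were under 1 CPM in both libraries. Siglech had 1 count with Dox and 0 without, and Klk1 and Spib had 0 counts in both libraries. Pacsin1 had 67 counts with Dox and 1 without, and Il3ra had 50 and 30. Beside Bst2 and Irf8 the highest was Ccr9, which thymocytes share, at 579.9 CPM in Dox cells and 261 CPM in untreated cells, so that the summed level of the markers that are not members was 589 and 265 CPM. For conventional dendritic cells 8 of 12 markers were under 1 CPM, with sums of 116 CPM with Dox and 109 CPM without. Ccr7, which T cells also carry, made up most of the Dox sum and was higher, at 101 CPM with Dox and 49.1 CPM without. H2-Aa was lower at 10.4 CPM with Dox and 47.4 CPM without, and Cd74 at 1.90 and 11.6 CPM, while Itgax had 3 counts with Dox and 1 without. Myeloid markers summed to 28.4 CPM in the Dox library and 23.0 CPM in the untreated library, with 11 of 17 under 1 CPM. Their members differed in direction, with Lyz2 at 1.69 CPM with Dox and 7.24 CPM without, Itgam at 14.7 and 8.42 CPM, and Cd68 at 6.19 and 3.29 CPM. B cell markers summed to 4.78 and 3.95 CPM with 10 of 11 under 1 CPM, and NK cell markers to 37.8 and 23.6 CPM with 8 of 12 under 1 CPM. Of the NK cell markers, Tbx21 had 20.5 CPM with Dox and 16.4 CPM without, a ratio of 0.31 (0.01 to 0.63). Eomes had 166 counts with Dox and 38 without, a ratio of 1.19 (0.71 to 1.77). Prf1 had 35 counts with Dox and 3 without, Nkg7 41 and 9, and Klrb1c 3 in each library. Vpreb3, with 51 counts with Dox and 21 without, made up most of the B cell sums. Its interval of -0.38 to 1.18 held 0. Ms4a1 (B cells), Ncr1 and Klrk1 (NK cells), Ly6g (myeloid cells) and Zbtb46 (dendritic cells) had 0 counts in both. The part of such cells in the ratios above was not tested. In a bulk library, fewer cells of a type and less RNA per cell cannot be told apart.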

How the data were processed

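RNA sequencing measured transcripts in 1 library per group. The authors' deposited tables hold raw read counts and a length for each gene. Per the submitters' processing notes, CASAVA 1.8.2 and featureCounts were used with mm10. Aligner, annotation, strand setting and the handling of multi-gene reads are not stated in these sources. The design text has 3 mice in each group and 2 sequencing runs, and does not say how these were combined. The series table and the library files differed in 0 values.

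Counts were scaled with TMM (edgeR 4.0.16, R 4.3.3; factors 0.984 for Dox and 1.02 for untreated) over all 27179 genes. The size rule took 5 CPM or more in the higher library and at least 1.5-fold or 2-fold. A gene counted as measured with 1 CPM in the mean of both libraries. All members could be named, and of each further list up to 4 genes with the largest absolute ratio past 5 CPM. Pacsin1, Il3ra, Ptcra, Uba7, Ube2l6 and the Toll-like receptors were picked for naming once their counts were known. So were the markers of other cell types with few or no counts. Some single-gene values of the further lists are not reported here and were left out of the lists. Members and lists were chosen with earlier results of these data known. Symbols and positions come from RefSeq (GRCm38.p6), as do promoter sequences, and exon overlaps and shared 50-base words from GENCODE M21. Ratios and intervals were tested on simulated data. Other steps used Python 3.11.15 with matplotlib 3.10.9, scipy 1.17.1, pandas 2.3.3 and numpy 2.4.6. Alternatives were total counts, DESeq2 1.42.0 size factors, prior counts of 0.5 and 5, minimums of 20 CPM and none, thinning of the Dox counts, and the interval bound in place of the ratio. Removing the trend with gene length and leaving out members with shared sequence were added after seeing the data.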

Additional observations from a re-analysis of the deposited data

How the results depend on the processing

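With total counts, DESeq2 size factors, prior counts of 0.5 or 5, thinned Dox counts or the length trend removed, each of the 43 measured members kept a ratio within its counting interval, and 0 members changed direction past 1.5-fold. Total counts left 15 members at least 1.5-fold higher (5.45% of all genes), without Ifi35, and moved the median of all genes to -0.03. Removing the length trend gave 18 (6.1% of all genes), with Usp18 and Rtp4 added. With the interval bound in place of the ratio, the 1.5-fold rule gave 9 members higher (3.18% of all genes) and 2 lower (2.89%). With a minimum of 20 CPM, 12 were at least 1.5-fold higher and 3 lower, since fewer genes are compared. With no minimum, 21 were at least 1.5-fold higher and 7 lower, and 11 at least 2-fold higher and 1 lower. The members added there are under 5 CPM, such as Oasl1 with 14 counts with Dox and 1 without, and Ifitm2 with 2 and 7. The share of all genes was not computed at these minimums. With the Dox counts thinned, 1 was at least 2-fold lower (2.31% of all genes). Irf5, Ifi35, Ifit3, Ifitm2, Oas1a, Rtp4, Adar and Herc6 share over 10% of their 50-base words with other genes, so that their counts are less certain. Leaving out these 8 members gave a median of 0.45, against 0.56 over the 43 measured members. By the 1.5-fold rule 15 were then higher (6.28% of all genes) and 6 lower (6.18% of all genes). No paired analysis was possible because each group has 1 library. No replicate could be left out for the same reason, so the spread between mice is not part of any value. Depth limits the 9 members under 5 CPM most.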
